A study of Mus musculus with 24 samples.

Results

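The 38 genes described here encode the enzymes that make fatty acids from malonyl-CoA and acetyl-CoA, the enzymes that make cholesterol from acetyl-CoA, and the proteins that control both. They were chosen by name, as 15 genes of the fatty acid branch, 18 of the sterol branch and 5 regulators, out of 21755 protein-coding genes annotated in GENCODE M21. Their promoters, taken as the windows within 1000 bp of any annotated transcription start site (TSS), were examined in peak lists of H3K9ac, the acetylation of lysine 9 of histone H3 found at active promoters. A promoter peak, meaning at least 1 bp of overlap, was called in all 12 libraries for 34 of the 38 genes. Over all annotated genes this share was 49.5%.

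H3K9ac was profiled by ChIPmentation, in which the transposase Tn5 tags immunoprecipitated chromatin on the beads, in 4T1 cells, a mouse mammary carcinoma line, grown as 3D spheroids and collected on day 5. The 4 groups had 3 libraries each: scramble control spheroids and spheroids with a knockout of CPT1a, the enzyme that carries long-chain fatty acids into mitochondria, both with 75 uM palmitate; CPT1a knockout spheroids with 5 mM acetate; and spheroids with a knockout of the histone acetyltransferase KAT2a, with 75 uM palmitate. Whether the acetate medium also held palmitate is not given in its label. A legend of the study on H3K9 acetylation names palmitate for these spheroids, both with acetate and without it. According to the study's methods, the knockouts were puromycin-selected lines made with inducible Cas9 and guides to separate exons, and the control guide targeted EGFP. No label says which guide a library carried or that the replicates were separate cultures, so the p-values below measure the spread between libraries, which may be technical. H3K9ac peaks cannot check the knockouts, no label gives a batch, so batch and group cannot be told apart, and the 12 input samples were not analysed here. The comparisons asked whether loss of CPT1a or KAT2a, or acetate given to CPT1a knockout cells, went with another H3K9ac order at these promoters.

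The lists differed between groups before any gene was considered. Scramble libraries held 29153 to 34330 peaks on chromosomes 1 to 19 and X, against 16201 to 24594 in the other 9 libraries, and their median peak width was 585 to 686 bp against 816 to 1147 bp. The median fold enrichment of a peak over its local background was 5.59 to 7.09 in scramble and 8.72 to 13.2 elsewhere. CPT1a knockout replicate 3 stood apart with the fewest peaks, 16201, and the shortest covered length, 19.5 Mb, so values without it are given where they differ. Fold enrichment was therefore read as a rank, a percentile from 0 to 100 (the strongest) of the highest fold enrichment at a promoter, taken over the 10777 genes called in every library. A rank says where a promoter stands among the others of its library and not how much H3K9ac it carries, and no total amount of the mark was measured. All 6 epithelial markers examined (Epcam, Cdh1, Krt7, Krt8, Krt18 and Krt19) had a promoter peak in 12 of 12 libraries, and the 4 leukocyte, 3 endothelial and 4 hepatocyte and adipocyte markers had one in 0.

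Fatty acid synthesis starts with acetyl-CoA carboxylase and fatty acid synthase, after which elongases lengthen the chain and desaturases add double bonds. Cholesterol synthesis runs from acetyl-CoA through mevalonate and isoprenoids to squalene, and from squalene through lanosterol to cholesterol. Both branches are known targets of the SREBP transcription factors, which the protein Scap escorts from the endoplasmic reticulum when sterols are low and which the Insig proteins hold back when sterols are high. SREBPs bind sterol regulatory elements, usually next to sites for NF-Y, which binds CCAAT boxes, and Sp1, which binds GC boxes.

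Promoter sequences from RefSeq (GRCm38.p6, the build named mm10 in the deposited lists) cover 250 bases before to 50 bases after a gene's start and were at hand for 31 of the 38 genes. The sequences of 3 genes whose rank differed between groups, and of Elovl6, the highest ranked of the 38, are printed 5′ to 3′ on the gene's strand. Capitals mark every match, on either strand, to TCACNCCA (a sterol regulatory element type, whose letters were set after sequences had been seen), CACGTG (E-box), CCAAT or GGGCGG (GC box). Promoter peaks overlapped each sequence in 12 of 12 libraries, most often in part: they took in 57 to 215 of the 300 bases for Srebf2, 200 to 300.0 for Idi1, 25 to 300.0 for Hsd17b7 and 32 to 300.0 for Elovl6. The strongest promoter peak was among them in all 12 libraries for 3 of the genes and in 11 for Hsd17b7.
Srebf2: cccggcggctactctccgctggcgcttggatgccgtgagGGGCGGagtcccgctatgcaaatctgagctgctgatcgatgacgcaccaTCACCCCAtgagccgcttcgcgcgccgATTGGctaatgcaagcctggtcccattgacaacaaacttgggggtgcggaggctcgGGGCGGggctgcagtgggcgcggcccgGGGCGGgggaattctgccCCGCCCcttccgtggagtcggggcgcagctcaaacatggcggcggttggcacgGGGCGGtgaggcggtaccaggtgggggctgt
Idi1: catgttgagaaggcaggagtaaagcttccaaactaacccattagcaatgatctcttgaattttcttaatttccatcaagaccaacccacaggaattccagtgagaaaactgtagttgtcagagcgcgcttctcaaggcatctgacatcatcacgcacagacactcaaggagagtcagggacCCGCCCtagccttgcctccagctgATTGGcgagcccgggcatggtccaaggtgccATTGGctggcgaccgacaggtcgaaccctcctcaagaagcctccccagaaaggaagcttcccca
Hsd17b7: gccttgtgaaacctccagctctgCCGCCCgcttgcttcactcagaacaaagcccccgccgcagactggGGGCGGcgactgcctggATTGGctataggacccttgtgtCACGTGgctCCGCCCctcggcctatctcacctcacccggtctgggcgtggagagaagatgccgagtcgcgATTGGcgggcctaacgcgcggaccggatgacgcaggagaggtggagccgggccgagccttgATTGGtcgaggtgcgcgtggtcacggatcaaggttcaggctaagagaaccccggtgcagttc
Elovl6: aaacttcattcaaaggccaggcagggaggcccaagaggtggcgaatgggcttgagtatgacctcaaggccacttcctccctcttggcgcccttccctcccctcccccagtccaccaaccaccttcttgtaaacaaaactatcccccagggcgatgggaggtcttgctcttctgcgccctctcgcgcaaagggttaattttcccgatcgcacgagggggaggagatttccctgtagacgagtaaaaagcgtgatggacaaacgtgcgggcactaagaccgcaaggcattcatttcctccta
They lie at chr15:82147019-82147318 (plus strand, Srebf2), chr13:8885356-8885655 (plus strand, Idi1), chr1:169969156-169969455 (minus strand, Hsd17b7) and chr3:129532136-129532435 (plus strand, Elovl6).

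Srebf2 held 1 TCACNCCA match at -162, counted from the start, with a CCAAT match at -135 and 5 GC boxes. Hsd17b7 held 3 CCAAT matches, 3 GC boxes and 1 E-box, Idi1 held 2 CCAAT matches and 1 GC box, and Elovl6 held none of the 4 motifs. CCAAT was in 24 of the 31 promoters (77.4%), against 37.4% of all 32851 RefSeq promoters of this length and 43.8% of the genes ranked here, and 14 of the 15 sterol branch promoters held it against 6 of 11 in the fatty acid branch. GC boxes were in 25 of 31, against 35.7% of all promoters and 72.3% of ranked genes, and E-boxes in 7 of 31, against 7.15% and 12.1%. TCACNCCA was in Srebf2, Hmgcs1 and Msmo1 only, against 4.36% of all promoters. The motifs do not overlap each other in the printed sequences, and a match is a string of letters, not a bound site.

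In the fatty acid branch, 11 of 15 promoters were called in every library. Acaca, which encodes the cytosolic acetyl-CoA carboxylase, ranked at 72.4 ± 8.2 over the 12 libraries (mean ± SD), from 56.4 to 85.2. Fasn, fatty acid synthase, ranked at 59.4 ± 12.4, from 40.9 to 83.3. Acacb, the carboxylase of the mitochondrial surface, ranked at 6.9 ± 3.6, near the bottom. The ranges of Acaca and Acacb did not overlap, while those of Acaca and Fasn did.

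Among the 7 elongases, Elovl6, which lengthens palmitate, had the highest mean rank of all 34 genes at 78.2 ± 20.6. Its libraries ran from 22.5 in CPT1a knockout replicate 1 to 94.3, and the remaining 11 were at 64.1 or above. The summit of its strongest peak lay a median 1158.5 bp downstream of the nearest TSS. A peak summit, of the strongest or another peak, lay within the promoter window in 6 of 12 libraries. Elovl1 and Elovl5 had mean ranks of 40.1 and 41.6 and Elovl7 of 29.4. Elovl2, Elovl3 and Elovl4, elongases with tissue-restricted roles, had no promoter peak in any of the 12 libraries. The GC content around the TSS was 50.3% to 56.1% for these 3 genes, within the 42.4% to 60.3% of the 34 called genes.

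Scd1, a stearoyl-CoA desaturase, was called in 11 of 12 libraries and missed in CPT1a knockout replicate 3, the list with the fewest peaks. Its fold enrichment was 7.22, 4.52 and 5.08 in scramble replicates 1 to 3, 6.63 and 8.68 in CPT1a knockout replicates 1 and 2, 6.32, 6.55 and 6.71 with acetate, and 7.67, 8.11 and 7.96 in KAT2a knockout. In each library that called it, these values placed Scd1 between percentiles 1.8 and 8.33 of the genes called there. Scd2, the neighbouring desaturase gene, ranked at 45.6 ± 13.5 and had the widest promoter peaks of the 34 genes, a summed 4732 bp on average, followed by Acaca with 4586 bp and Elovl6 with 4322 bp. The desaturases of polyunsaturated fatty acids differed in level, with mean ranks of 40.7 for Fads2, 23.8 for Fads1 and 4.1 for Fads3, the lowest of the 34.

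Of the regulators, Srebf2, which encodes SREBP2, the SREBP known mainly for sterol genes, ranked at 76.4 ± 11.2, and Srebf1, which encodes SREBP1, at 43.8 ± 10.1. Insig2 ranked at 64.5 ± 13.5, against 22.4 ± 16.9 for Insig1 and 15.9 ± 10.0 for Scap. In the first part of the sterol branch, Hmgcs1, the cytosolic HMG-CoA synthase, ranked highest at 61.2 ± 11.8. It was followed by Fdft1 (squalene synthase, 37.9), Idi1 (isopentenyl diphosphate isomerase, 32.5), Fdps (farnesyl diphosphate synthase, 28.2), Pmvk (phosphomevalonate kinase, 27.7) and Mvd (mevalonate diphosphate decarboxylase, 22.97). Mvk (mevalonate kinase, 12.8) and Acat2 (cytosolic acetoacetyl-CoA thiolase, 5.9) were lowest. The SDs of these genes, 2.8 to 16.3, exceed the steps between most neighbours in this order.

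From squalene to cholesterol, Sc5d (sterol C5 desaturase) ranked at 66.99 ± 12.5, Cyp51 (lanosterol demethylase) at 54.2 ± 19.7, Dhcr7 (the last reductase of the pathway) at 53.1 ± 13.3 and Msmo1 (a sterol methyl oxidase) at 47.2 ± 16.9. Sqle, squalene epoxidase, ranked at 41.8 ± 16.2, from 9.7 in KAT2a knockout replicate 3 to 64.6 in acetate replicate 2. Hsd17b7, a sterol ketoreductase, had a mean of 30.2, Ebp, a sterol isomerase, of 26.2, and Lss, lanosterol synthase, of 21.9. Nsdhl, a sterol dehydrogenase, ranked at 9.6 and Tm7sf2, a sterol reductase, at 6.7. The promoters of Mvk and Mmab, of Nsdhl and Cetn2, and of Fdps and Gm43738 shared their strongest peak in all 12 libraries, Dhcr7 shared it with Nadsyn1 in 8, Acaca with Tada2a in 5 and Tm7sf2 with Vps51 in 1, so their values do not belong to a single gene.

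Elovl6 ranked at 83.2, 92.6 and 80.9 in scramble replicates 1 to 3, 22.5, 78.8 and 94.3 in CPT1a knockout, 64.1, 78.03 and 64.3 when acetate was added, and 92.1, 94.3 and 93.04 in KAT2a knockout. For Insig1 the scramble libraries were at 8.2, 7.8 and 7.6, CPT1a knockout at 27.2, 9.8 and 67.2, its acetate libraries at 24.3, 18.9 and 24.3 and KAT2a knockout at 18.99, 38.3 and 16.5. The lowest Elovl6 value and the highest Insig1 value both fell in CPT1a knockout, in replicates 1 and 3, and every scramble value of Insig1 was below every other library. Srebf1 ranked at 55.6, 37.2 and 36.2 in scramble replicates 1 to 3, 50.2, 32.8 and 59.8 in CPT1a knockout, 42.4, 48.3 and 32.4 when acetate was added, and 31.6, 56.6 and 42.6 in KAT2a knockout. For Hmgcs1 the scramble libraries were at 64.1, 52.4 and 33.5, CPT1a knockout at 63.3, 79.5 and 64.6, its acetate libraries at 55.8, 53.4 and 64.99 and KAT2a knockout at 62.5, 63.8 and 76.03. Cyp51 ranked at 47.5, 50.4 and 76.4 in scramble replicates 1 to 3, 46.3, 74.2 and 21.8 in CPT1a knockout, 52.02, 36.9 and 25.98 when acetate was added, and 71.9, 69.6 and 77.4 in KAT2a knockout. Scramble overlapped the other groups for all 3 of these genes, and the KAT2a knockout values of Cyp51 were above its acetate values without overlap. For Fasn the scramble libraries were at 44.02, 68.5 and 40.9, CPT1a knockout at 56.7, 60.8 and 73.2, its acetate libraries at 48.8, 83.3 and 62.9 and KAT2a knockout at 58.9, 49.8 and 65.5. Scd2 ranked at 70.4, 41.5 and 44.6 in scramble replicates 1 to 3, 56.04, 68.9 and 44.1 in CPT1a knockout, 41.8, 45.3 and 35.2 when acetate was added, and 33.6, 41.2 and 24.9 in KAT2a knockout. For Sqle the scramble libraries were at 22.3, 55.5 and 56.9, CPT1a knockout at 31.6, 42.96 and 30.3, its acetate libraries at 44.7, 64.6 and 36.98 and KAT2a knockout at 50.8, 54.95 and 9.7. Scramble overlapped the other groups for Fasn and Sqle, while the Scd2 values of KAT2a knockout were just below those of scramble.

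For Fads3 the scramble libraries were at 4.04, 4.6 and 5.3, CPT1a knockout at 1.2, 4.8 and 5.1, its acetate libraries at 3.3, 5.6 and 5.01 and KAT2a knockout at 2.9, 1.1 and 5.9. Acat2 ranked at 0.6, 6.2 and 4.4 in scramble replicates 1 to 3, 7.5, 9.9 and 3.8 in CPT1a knockout, 9.2, 5.02 and 3.5 when acetate was added, and 9.4, 4.2 and 7.1 in KAT2a knockout. For Tm7sf2 the scramble libraries were at 8.4, 6.6 and 1.6, CPT1a knockout at 11.1, 5.8 and 15.1, its acetate libraries at 10.1, 6.1 and 1.8 and KAT2a knockout at 2.03, 1.2 and 10.9. None of these 3 genes exceeded 15.1 in any of the 12 libraries.

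The median rank of the 34 genes was 26.01 to 39.7 by library, and 8 to 14 of them ranked above 50. In scramble, the sterol branch (18 genes) had a median rank of 34.8, 41.3 and 32.5 and the fatty acid branch (11 genes) of 40.2, 29.4 and 40.9, so that sterol minus fatty acid was -0.636 ± 10.95 (SD, n = 3). This difference was -14.1 ± 5.22 in CPT1a knockout and -11.4 ± 3.83 when acetate was added. KAT2a knockout had -8.87 ± 9.22. By library it was -5.41, 11.9 and -8.40 in scramble, -8.27, -18.4 and -15.5 in CPT1a knockout, and -11.3, -15.3 and -7.64 when acetate was added. In KAT2a knockout it was -11.5, -16.5 and 1.39, and scramble overlapped each of the other groups. The sterol median was 22.5 to 31.3 in the 9 libraries outside scramble and 32.5 to 41.3 in the 3 scramble libraries, and the fatty acid medians overlapped. How often the median of 18 ranked genes separates in this way was not tested. The median GC content was 50.1% for the sterol and 53.5% for the fatty acid promoters.

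**Figure D1:**
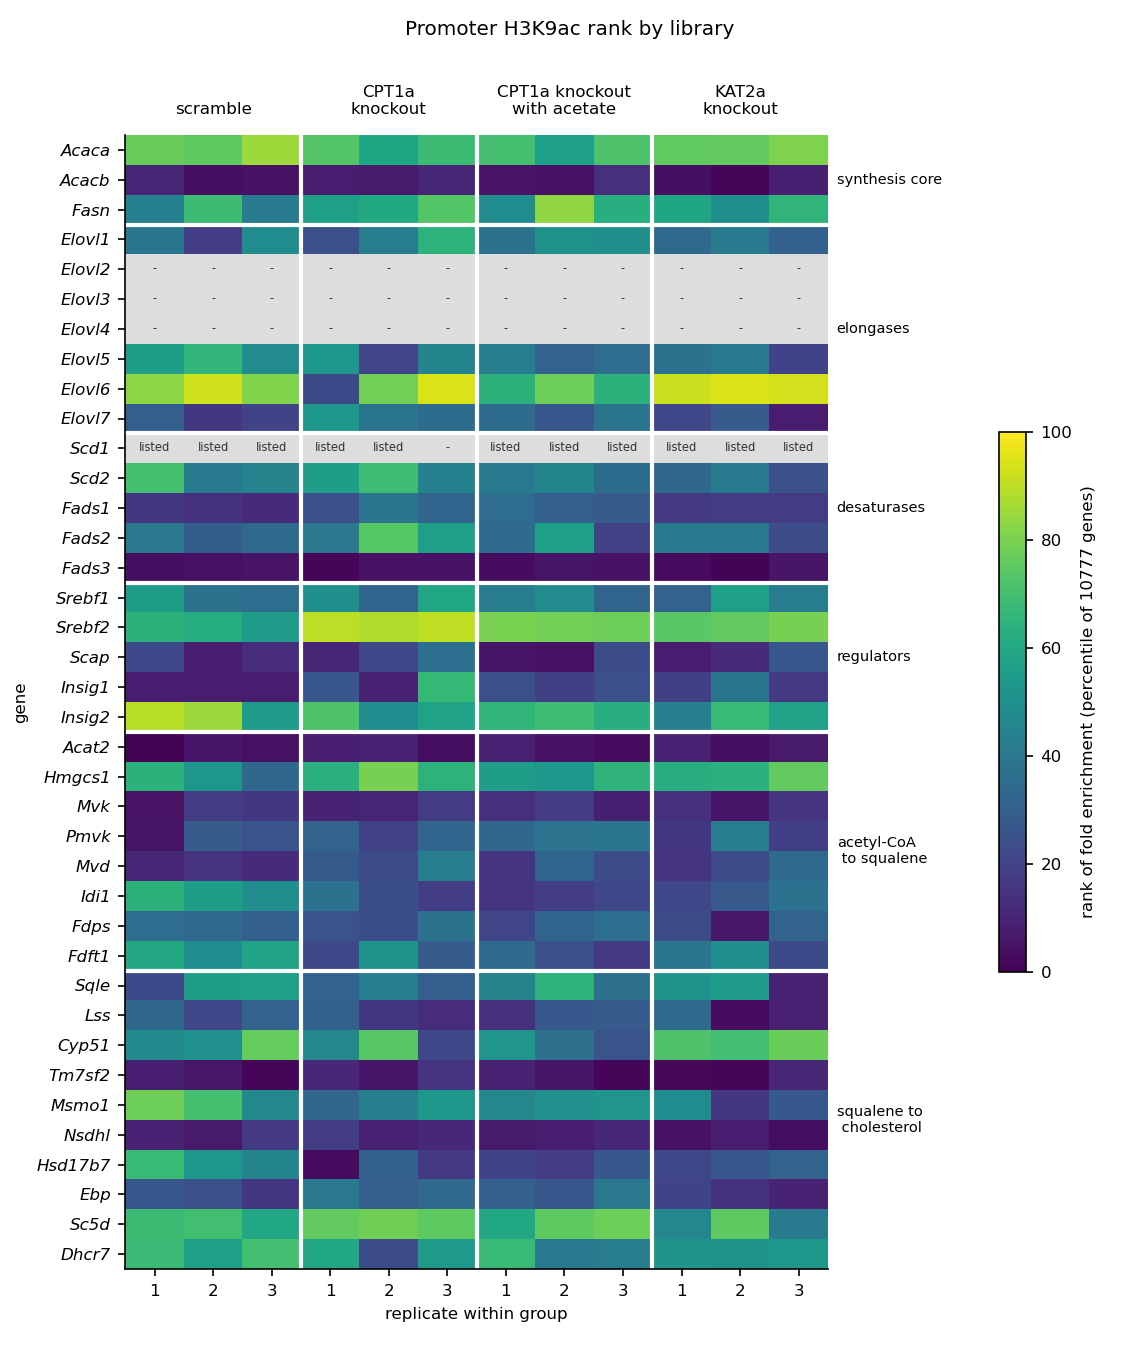
Rank of the strongest promoter peak by fold enrichment (colour, percentile of 10777 genes) for the 38 genes (rows, by role) in the 12 libraries (columns, 3 replicates a group). Grey cells were not ranked, a dash marks no promoter peak, and "listed" marks a peak of Scd1, which was missed in 1 library. Srebf2 is brighter in the 9 libraries outside scramble, and Idi1 and Hsd17b7 are darker.

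CPT1a knockout was compared with scramble first. In limma over 10777 genes, 2 of the 34 promoters ranked higher in CPT1a knockout and 2 lower at a Benjamini-Hochberg adjusted p under 0.05. Over all genes 4.77% ranked higher and 5.24% lower, so the members' shares were near the background. The 2 that rose were Srebf2 and Fads1, and the 2 that fell were the sterol branch genes Idi1 and Hsd17b7. At an unadjusted p under 0.05, 5 were higher and 3 lower, where 13.8% and 13.4% of all genes were. The median difference was 2.72 percentile points over the 34 genes and 0.217 over all genes, with medians of 4.17 in the fatty acid branch and -2.36 in the sterol branch.

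Srebf2 (chr15, TSS at 82147251, plus strand) ranked at 64.1, 61.8 and 54.8 in scramble replicates 1 to 3 and at 90.1, 87.9 and 90.6 in CPT1a knockout. With acetate it ranked at 79.9, 78.9 and 78.1, and in KAT2a knockout at 74.6, 75.9 and 79.7. All 9 libraries outside scramble were above the 3 of scramble, and the CPT1a knockout libraries were the highest. Its difference was 29.3 ± 7.25 (SE) between CPT1a knockout and scramble, with a limma adjusted p of 0.0216. The fold enrichment itself also did not overlap, at 19.9 to 21.9 in scramble and 27.9 to 44.2 in CPT1a knockout, but 28.4% of all ranked genes were higher in every CPT1a knockout library in this way, and the median of the lists was 5.59 to 7.09 against 11.3 to 13.2. Without CPT1a knockout replicate 3 the adjusted p was 0.0508, and without scramble replicate 3 it was 0.0698.

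Fads1, the delta-5 desaturase gene, whose strongest peak lay near the TSS at 10183554 on chr19, ranked at 16.4, 14.6 and 12.1 in scramble and 24.2, 38.4 and 32.8 in CPT1a knockout. Acetate libraries were at 35.9, 30.3 and 28.6 and KAT2a knockout libraries at 17.0, 17.4 and 17.8. The CPT1a knockout libraries, with or without acetate, were all above the scramble libraries, whereas KAT2a knockout was above them by less. The difference between CPT1a knockout and scramble was 17.4 ± 5.07, with a limma adjusted p of 0.0417, which was 0.140 once the trend with GC content was removed. The call was kept in 6 of 15 alternatives: leaving out any of the 6 libraries except CPT1a knockout replicate 1 ended it, at adjusted p-values of 0.0813 to 0.135, as did normal scores (0.0760) and quantile-normalised values (0.0719), and the replicate block as well.

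Idi1, which isomerises the isoprenoid building blocks (chr13, TSS at 8885994, plus strand), ranked at 64.1, 55.8 and 49.1 in scramble and at 37.3, 23.8 and 18.1 in CPT1a knockout. Acetate libraries were at 15.6, 18.3 and 21.3 and KAT2a knockout libraries at 21.5, 27.9 and 37.3. Every library outside scramble was below the lowest scramble library. The difference was -29.9 ± 7.57 in CPT1a knockout, with a limma adjusted p of 0.0236, and 0.0816 without CPT1a knockout replicate 3. Leaving out CPT1a knockout replicate 2 or scramble replicate 1 also ended the call, at 0.0599 and 0.0733, as did quantile-normalised values. The call was kept in 11 of 15 alternatives. The fold enrichment of Idi1 overlapped between scramble and CPT1a knockout, at 20.2 ± 1.48 and 19.7 ± 6.66, while the median fold enrichment of the lists was higher outside scramble. With acetate it was 16.4 ± 1.41, from 15.1 to 17.9, below the 18.6 to 21.5 of scramble. In KAT2a knockout it was 22.4 ± 1.67.

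Hsd17b7 (chr1, TSS at 169969241, minus strand) ranked at 67.9, 52.4 and 45.0 in scramble and at 2.8, 31.1 and 16.9 in CPT1a knockout. Acetate libraries were at 20.3, 18.3 and 27.6 and KAT2a knockout libraries at 21.8, 26.8 and 31.9. As with Idi1, no library outside scramble reached the lowest scramble library. The difference was -38.1 ± 8.14, with a limma adjusted p of 0.0108, and the call was kept in all 15 alternatives, at adjusted p-values of 0.00103 to 0.0438. Fold enrichment was 19.9 ± 2.39 in scramble and 15.8 ± 8.73 in CPT1a knockout, and these overlapped.

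**Figure D2:**
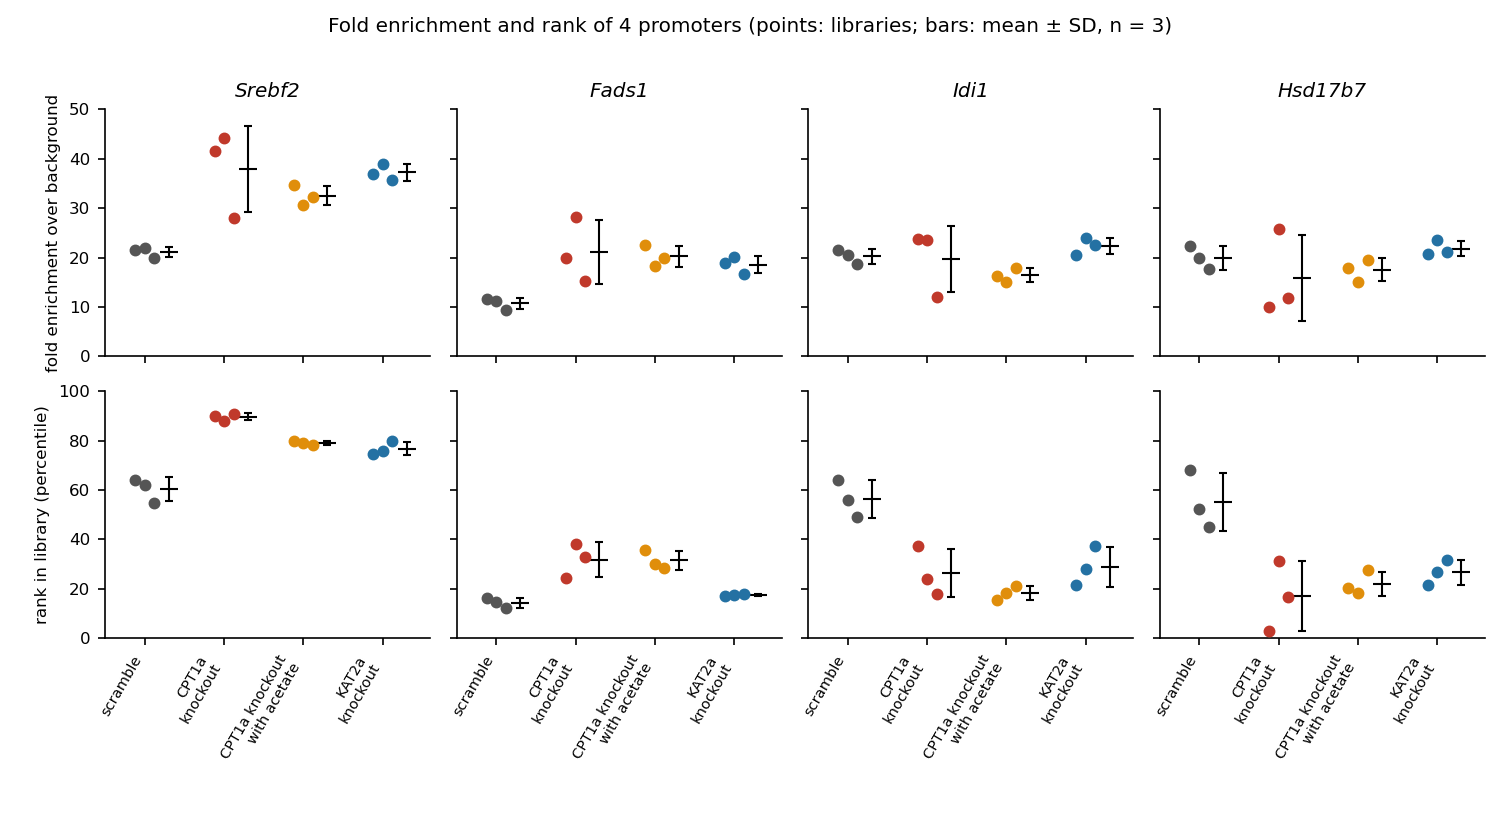
Fold enrichment over local background (upper row) and rank in the library (lower row, percentile) of the strongest promoter peak of Srebf2, Fads1, Idi1 and Hsd17b7, with a point for each library and bars for the mean ± SD (n = 3) of each group. Srebf2 was higher on both scales outside scramble, while Idi1 and Hsd17b7 were lower in rank with overlapping fold enrichment between scramble and CPT1a knockout.

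The shape of these promoters is visible in their peaks. Srebf2 had 2 promoter peaks in each of the 12 libraries, a short one upstream of the TSS at 82147251 and the strongest downstream. The strongest peak also covered that TSS except in scramble replicate 2, where it began at 82147262. The summit of the strongest peak lay 1110 to 1199 bp downstream of that TSS in the 3 scramble libraries, where the annotated TSS at 82148025 is nearer, and 240 to 363 bp downstream of it in all 9 other libraries. The Srebf2 values of scramble and of the other groups thus belong to summits at different places, and the part of this in its rank difference was not tested. Idi1 had a single peak in 9 libraries, with the summit 471 to 501 bp downstream of the TSS at 8885994 in scramble and between -301 and 409 bp in the others. Its summed width was 2821 to 4056 bp in scramble and 1632 to 2528 bp in the other 9. The median summed width over all ranked genes was also larger in scramble, at 2743 to 3411 bp against 1658 to 2566 bp. Hsd17b7 was called as 2 peaks in 8 libraries and as 1 in 4, with the strongest summit at a median of -548.5 bp from the TSS. The strongest peak of Hsd17b7 lay downstream of the TSS in CPT1a knockout replicate 3 and KAT2a knockout replicate 3, where the promoter was split, and the summit of the single peak in CPT1a knockout replicate 1 lay 286 bp downstream. Over the 34 genes the median summit lay 294 bp downstream of the TSS nearest to it in each library, and 28 genes had it downstream.

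**Figure D3:**
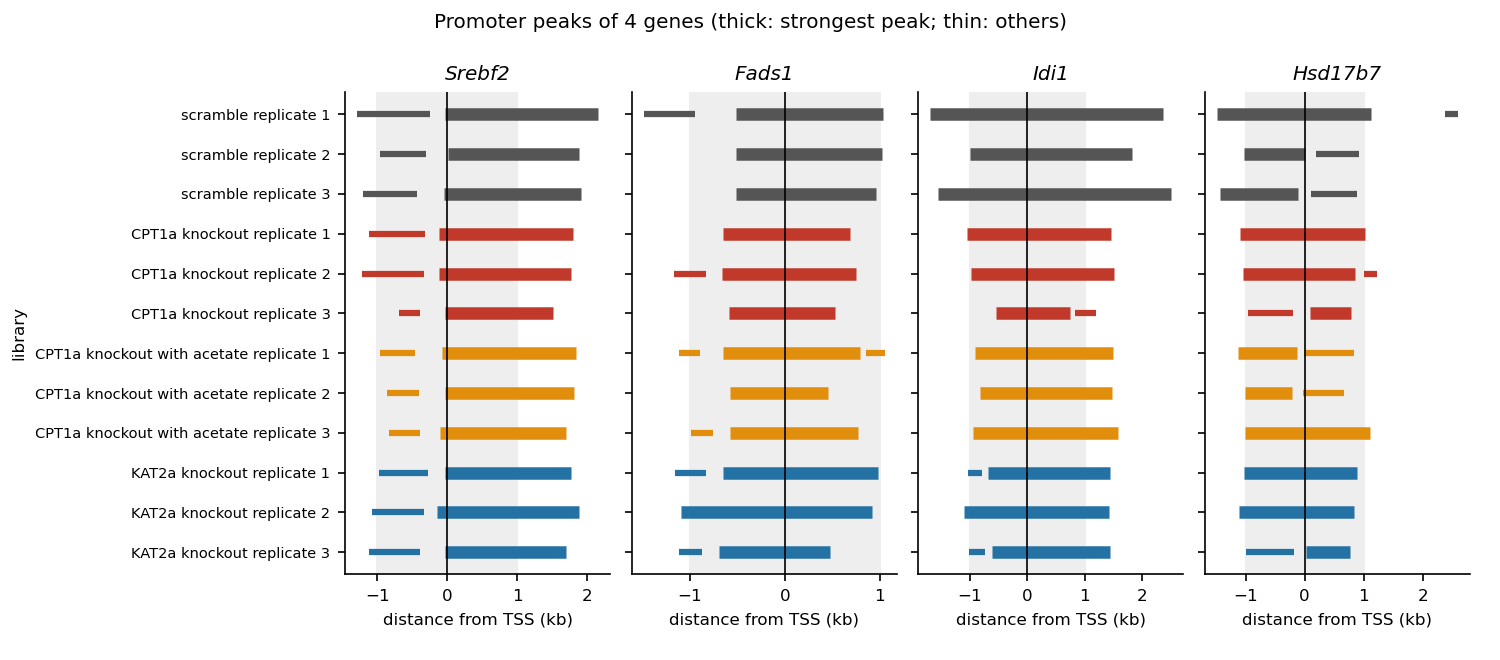
Extent of the promoter peaks of Srebf2, Fads1, Idi1 and Hsd17b7 in each library, as distance from 1 TSS per gene, that nearest to the strongest summit in most libraries (kb, downstream to the right). Thick bars are the strongest promoter peak, thin bars are further promoter peaks, and the shaded area is the window of 1000 bp on each side. The Idi1 peaks were wider in scramble than in the other groups, as was the median summed width over all ranked genes.

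Other genes of the branches did not pass the test between CPT1a knockout and scramble, among them Insig1, an SREBP target itself, which ranked at 8.2, 7.8 and 7.6 in scramble and 27.2, 9.8 and 67.2 in CPT1a knockout. Its difference of 26.9 ± 10.3 had a limma adjusted p of 0.111. Elovl7, an elongase, and Mvd had differences of 20.1 ± 7.43 (adjusted p = 0.0994) and 18.7 ± 6.49 (adjusted p = 0.0807). For genes described as not overlapping in rank, the share of all ranked genes doing so is not given here. Acaca differed by -12.0 ± 8.47, Fasn by 12.4 ± 11.61, Scd2 by 4.17 ± 10.6, Srebf1 by 4.60 ± 10.5, Hmgcs1 by 19.1 ± 10.5, Sqle by -9.97 ± 13.1 and Cyp51 by -10.7 ± 13.3. Acaca ranked at 76.7, 75.2 and 85.2 in scramble and 73.4, 59.2 and 68.5 in CPT1a knockout. Its mean was 66.3 ± 8.64 (SD) with acetate and 77.4 ± 2.82 in KAT2a knockout.

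KAT2a knockout was compared with scramble next. Here limma called 0 of the 34 promoters, where 1.70% of all genes were higher and 2.71% lower, and 5 passed an unadjusted p of 0.05, of which 4 were lower, where 20.8% of all genes passed and 11.1% were lower. The 2 with the largest differences were sterol genes. Msmo1 ranked at 77.98, 70.5 and 46.9 in scramble and 48.8, 16.3 and 27.4 in KAT2a knockout, a difference of -34.3 ± 11.3 with an adjusted p of 0.0988, and the groups overlapped. Hsd17b7 differed by -28.3 ± 8.14 (adjusted p = 0.0625) and Idi1 by -27.5 ± 7.57 (adjusted p = 0.0532). Srebf2 differed by 16.5 ± 7.25 (adjusted p = 0.211). The median difference was -6.95 over the 18 sterol genes, -1.33 over the 11 fatty acid genes and 0.104 over all genes.

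Between CPT1a knockout with acetate and CPT1a knockout, limma called 0 of the 34 promoters, and 0 passed an unadjusted p of 0.05. Over all genes 0.0278% were higher and 0.0186% lower, and 981 of 10777 (9.10%) passed the unadjusted p. The largest differences were in the desaturases Fads2 and Scd2. Fads2 ranked at 39.6, 73.8 and 56.4 in CPT1a knockout and 34.9, 56.5 and 19.2 with acetate, a difference of -19.8 ± 11.2 (adjusted p = 0.639). Scd2 ranked at 56.0, 68.9 and 44.1 and at 41.8, 45.3 and 35.2, a difference of -15.6 ± 10.6 (adjusted p = 0.710). Both genes overlapped between the groups. Srebf2 was lower with acetate in 3 of 3 libraries, by -10.6 ± 7.25 (adjusted p = 0.711), and Fads1 differed by -0.206 ± 5.07.

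In CPT1a knockout with acetate against scramble, which shares the scramble libraries with the first comparison, limma called 0 promoters higher and 2 lower, where 1.66% of all genes were higher and 3.90% lower. Both were sterol genes, Idi1 with a difference of -38.0 ± 7.57 (adjusted p = 0.0108) and Hsd17b7 with -33.1 ± 8.14 (adjusted p = 0.0312). At an unadjusted p under 0.05, 2 promoters were higher and 3 lower, where 9.57% and 12.4% of all genes were. Fads1 differed by 17.2 ± 5.07 (adjusted p = 0.0603) and Srebf2 by 18.7 ± 7.25 (adjusted p = 0.144). Without acetate replicate 1 or 2 the adjusted p of Idi1 was 0.0537 or 0.0501, and that of Hsd17b7 was 0.0965 or 0.109. Hsd17b7 also missed the threshold without acetate replicate 3 (0.0651), without scramble replicate 1 (0.106) and with the GC trend removed (0.114). It missed it with normal scores and quantile-normalised values as well, at adjusted p-values up to 0.169, and passed in 8 of 15 alternatives.

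**Figure D4:**
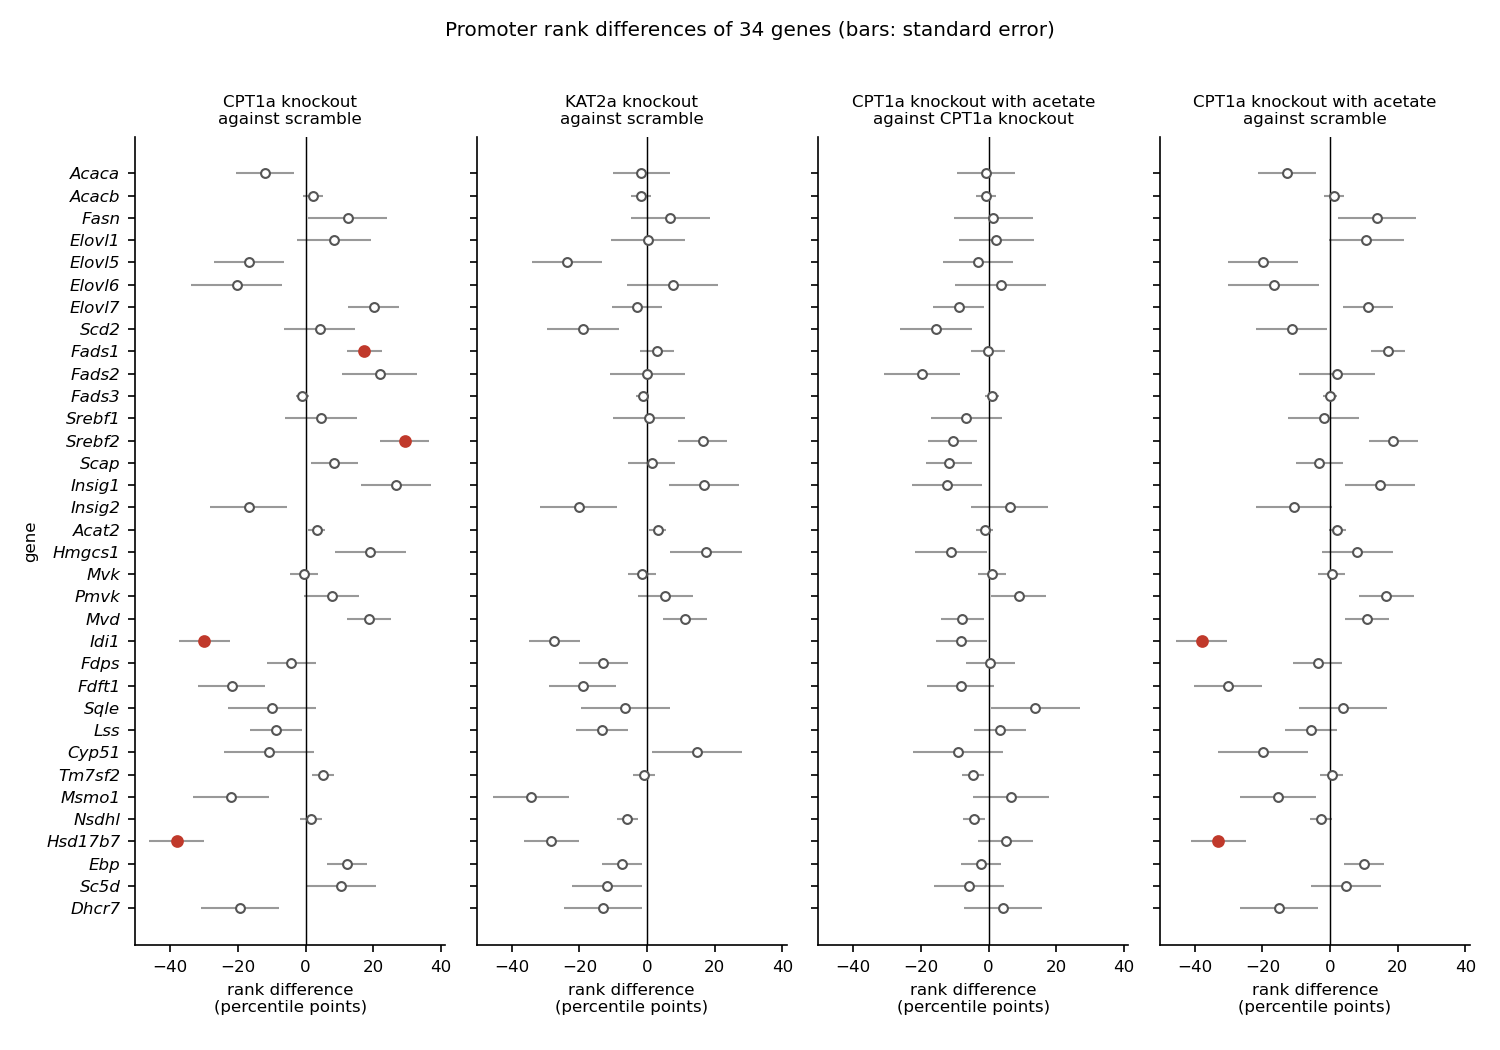
Rank difference (percentile points, first group minus second) of the 34 ranked genes in the 4 comparisons, with bars for the SE of the limma fit. Filled red points have a Benjamini-Hochberg adjusted p under 0.05 over 10777 genes: Fads1, Srebf2, Idi1 and Hsd17b7 in CPT1a knockout, Idi1 and Hsd17b7 with acetate against scramble, and none in the other comparisons.

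Width was ranked in the same way, as the percentile of the summed width of a gene's promoter peaks. In CPT1a knockout against scramble, 8 of the 34 promoters ranked wider and 0 narrower, where 9.69% of all genes were wider and 8.29% narrower. The 8 were Fasn, Elovl1 and Elovl6 of the fatty acid branch, the regulator Srebf2, and Hmgcs1, Mvk, Mvd and Hsd17b7 of the sterol branch. All 11 fatty acid promoters had a positive difference, with a median of 6.97, against 12 of 18 sterol promoters, with a median of 4.60. Over all genes 49.4% were positive, with a median of -0.0943. By the widest single peak 2 promoters were called, and with the GC trend removed 4 were. Of all 10777 genes, 685 were wider and 841 narrower by the widest peak, and 1005 and 873 with the GC trend removed. Of the 8 calls, those of Elovl1, Fasn and Mvk passed in 11, 10 and 10 of 11 alternatives, and those of Elovl6, Hmgcs1, Hsd17b7, Srebf2 and Mvd in 6, 5, 5, 4 and 4. With a library left out, 3 to 7 promoters were called, and 623 to 1071 of all genes were wider and 425 to 899 narrower, against 1044 and 893 with all libraries.

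Fasn ranked in width at 69.5 ± 3.64 in scramble and 88.8 ± 3.38 in CPT1a knockout (SD, n = 3), a difference of 19.3 ± 2.33 (SE) with a limma adjusted p of 0.000638. In bp its summed width was 4091, 3609 and 3700 in scramble and 3574, 3704 and 3259 in CPT1a knockout, and these overlapped, while the median over all ranked genes was 2743 to 3411 bp in scramble and 1658 to 2234 bp in CPT1a knockout. Elovl1 differed by 20.2 ± 2.92 (adjusted p = 0.00160) and Mvk, which shares its peak with Mmab, by 21.3 ± 4.32 (adjusted p = 0.00817). Mvk was 1914, 1252 and 1194 bp wide in scramble and 1652, 1874 and 1356 bp in CPT1a knockout, and these overlapped. Hsd17b7 rose in width rank by 16.8 ± 4.46 (adjusted p = 0.0249) while its rank by fold enrichment fell.

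The number of peaks per promoter moved with these widths. In scramble 22 to 26 of the 34 promoters were split into more than 1 peak, against 8 to 19 in the other libraries, and over all ranked genes the share was 43.5% to 55.6% against 17.0% to 37.1%. The median summed width of the 34 genes was 2454 to 3078 bp in scramble and 1560 to 2414 bp elsewhere. With peaks within 500 bp merged, 7 of the 34 promoters ranked wider in CPT1a knockout and 0 narrower. Of all 10777 genes, 1292 were wider and 844 narrower in that setting.

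In KAT2a knockout 4 promoters ranked wider than in scramble and 0 narrower, where 7.84% of all genes were wider and 7.02% narrower. They were Fasn (13.98 ± 2.33, adjusted p = 0.00401), Elovl6 (8.81 ± 2.06, adjusted p = 0.0190), Mvk (16.4 ± 4.32, adjusted p = 0.0291) and Elovl1 (10.8 ± 2.92, adjusted p = 0.0314). These calls passed in 10, 7, 3 and 6 of 11 alternatives, at adjusted p-values up to 0.437, 0.0650, 0.261 and 0.330. With acetate against scramble 4 ranked wider and 0 narrower, where 7.50% of all genes were wider and 6.89% narrower. These were Fasn (19.4 ± 2.33, adjusted p = 0.000881), Elovl1 (17.7 ± 2.92, adjusted p = 0.00438), Elovl6 (7.79 ± 2.06, adjusted p = 0.0304) and Mvd (17.8 ± 5.26, adjusted p = 0.0433). They passed in 10, 10, 7 and 1 of 11 alternatives, and the Mvd call was lost without any single library of the comparison, at adjusted p-values of 0.0526 to 0.151. Between acetate and CPT1a knockout, limma called 0 of the 34 promoters and 0.00% of all genes. At an unadjusted p under 0.05, 3 of the 34 were narrower with acetate, namely Srebf2, Hmgcs1 and Hsd17b7, where 3.31% of all genes were narrower and 767 passed in either direction.

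**Figure D5:**
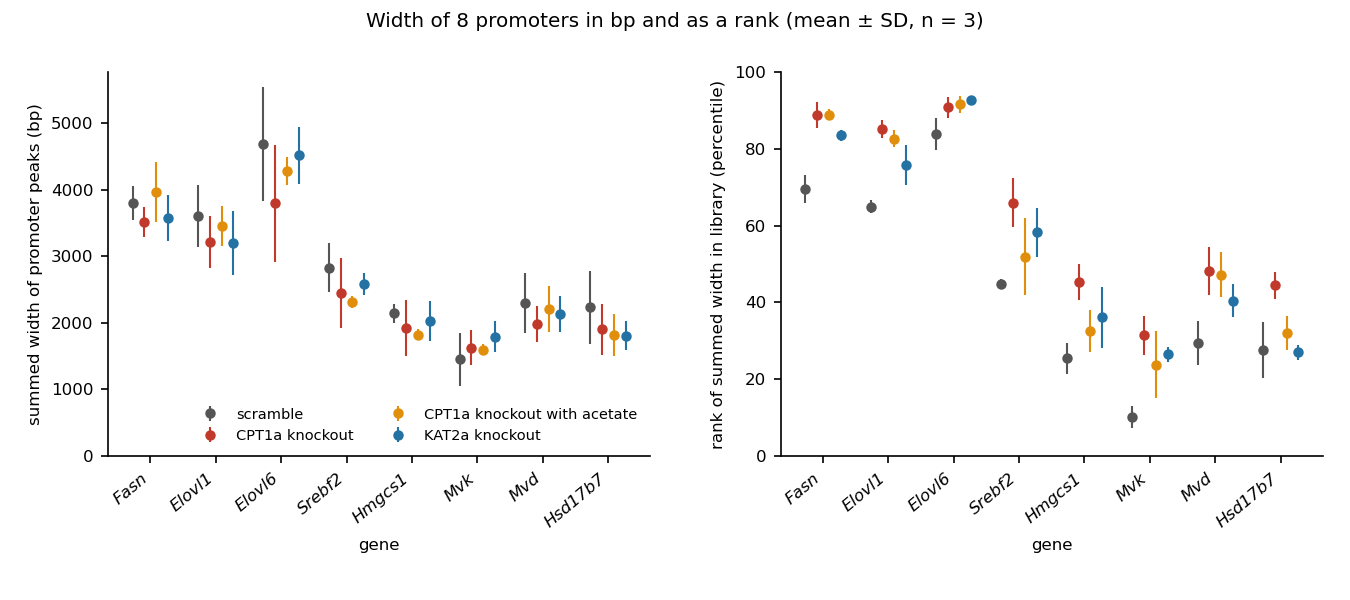
Summed width of the promoter peaks (left, bp) and its rank in the library (right, percentile) for the 8 promoters that ranked wider in CPT1a knockout than in scramble, as mean ± SD (n = 3) of each group. The widths in bp of scramble and CPT1a knockout lie close together, with the scramble mean above for 7 of the 8 genes and below for Mvk, while the ranks of scramble are below those of CPT1a knockout for all 8.

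Further genes of lipid synthesis were taken from 5 lists: supply of cytosolic acetyl-CoA and NADPH, partners of the elongation cycle, mitochondrial fatty acid synthesis, control by SREBP and LXR, and side steps of sterol and isoprenoid synthesis. Of 32 genes listed, 31 were found by symbol and 26 had a promoter peak in all 12 libraries. In CPT1a knockout against scramble, 2 of the 26 ranked higher and 1 lower, where 4.77% of all genes ranked higher and 5.24% lower. The higher ones were Slc25a1, the mitochondrial citrate carrier (18.6 ± 4.69, adjusted p = 0.0233), and Hacd2, a dehydratase of the elongation cycle (26.9 ± 7.41, adjusted p = 0.0327). The Slc25a1 call passed in 11 of 15 alternatives and was lost with the GC trend removed (0.413) and without CPT1a knockout replicate 3 or scramble replicate 2 or 3 (0.0641 to 0.0877). The Hacd2 call passed in 8 of 15, and leaving out any library except CPT1a knockout replicate 2 ended it (0.0556 to 0.110). The lower one was Acss2, the cytosolic enzyme that makes acetyl-CoA from acetate, whose strongest peak was shared with Ggt7 in all 12 libraries.

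Acss2 ranked at 77.5, 61.8 and 67.7 in scramble, 48.2, 23.8 and 26.9 in CPT1a knockout, 22.6, 24.6 and 27.6 with acetate, and 20.9, 23.3 and 14.1 in KAT2a knockout. All 9 libraries outside scramble were below the 3 of scramble. The differences from scramble were -36.0 ± 8.44 in CPT1a knockout (adjusted p = 0.0171), -44.1 ± 8.44 with acetate (adjusted p = 0.00952) and -49.6 ± 8.44 in KAT2a knockout (adjusted p = 0.00686). Against scramble, Acss2 was the only 1 of the 26 genes past the threshold in KAT2a knockout and the only 1 with acetate. Over all genes 1.70% ranked higher and 2.71% lower in KAT2a knockout, and 1.66% and 3.90% with acetate. Between acetate and CPT1a knockout limma called 0 of the 26, and 6 passed an unadjusted p of 0.05, all 6 lower with acetate. Over all 10777 genes 9.10% passed it and 576 were lower. Without CPT1a knockout replicate 2 or 3, or scramble replicate 1, the adjusted p of Acss2 in CPT1a knockout was 0.0560, 0.0578 or 0.0535. In fold enrichment, Acss2 was 24.8, 21.9 and 23.1 in scramble and 26.7, 23.5 and 14.04 in CPT1a knockout, so these overlapped. With acetate it was 18.7, 16.9 and 19.6, all below scramble. In KAT2a knockout it was 20.3, 22.4 and 15.2, which overlapped scramble. In width rank, 3 of the 26 were narrower than in scramble in each of the 3 comparisons with scramble, and 1, 1 and 0 were wider in CPT1a knockout, in KAT2a knockout and with acetate. Over all genes, in that order, 8.29%, 7.02% and 6.89% were narrower and 9.69%, 7.84% and 7.50% wider. The narrower genes were Hacd3, another dehydratase of the elongation cycle, Me1, the cytosolic malic enzyme, and Oxsm, the mitochondrial ketoacyl synthase. In CPT1a knockout they differed by -23.7 ± 5.76 (limma adjusted p = 0.0179), -18.4 ± 5.53 (adjusted p = 0.0401) and -11.4 ± 2.47 (adjusted p = 0.0110). The wider genes were Mid1ip1, a partner of acetyl-CoA carboxylase (29.0 ± 5.43 in CPT1a knockout, adjusted p = 0.00547), and Mylip, a ubiquitin ligase controlled by LXR (20.7 ± 4.69 in KAT2a knockout, adjusted p = 0.0161).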

How the data were processed

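H3K9ac peak lists of 12 libraries (4 groups of 3, grouped by the labels) were analysed. According to the study's methods, reads were trimmed with fastq-mcf, aligned to mm10 with BWA and deduplicated with Picard; the submitters' processing notes name Bowtie2, SAMtools, deepTools and MACS2 and the builds mm10 and dm6. Antibody catalogue numbers differ between labels and methods. The authors called peaks on each library separately. The deposited fold enrichment is a ratio of summit pileup to local background, and the -log10 of p and of q in the deposited lists belong to a peak within its own list. The smallest -log10 q was 2.00. No read depth is given in the sources used here, and the number of peaks (16201 to 34330 on chromosomes 1 to 19 and X) limits comparison. Spike-in chromatin was not used here. No rescaling between libraries was applied here.

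Promoters were windows reaching 1000 bp to each side of every TSS of protein-coding genes (GENCODE M21, GRCm38), and a gene's value was that of its strongest peak with at least 1 bp of overlap. Genes called in all 12 libraries were ranked from 0 to 100 within each library, by fold enrichment or by summed width. Ranks were fitted with limma 3.58.1 (R 4.3.3; 4 group means, moderated variance with trend, 8 residual degrees of freedom) and adjusted by Benjamini-Hochberg over all 10777 genes at a threshold of 0.05. Code was tested on simulated data. Alternatives were the rank of -log10 p, removal of the GC trend (50 bins), normal scores, quantile-normalised log2 fold enrichment, windows of 500 bp, lists of equal length (16201 peaks), a -log10 q of at least 5, the summit required in the window, the widest peak, merging of peaks within 500 bp, a replicate block and leaving out each library; the use of protein-coding transcripts only was added after the data were seen. The members, gene lists and tests were chosen with earlier results of these data known. All 38 genes were accounted for. Values by library were given for genes not called everywhere, the 4 largest rank differences past the threshold in each comparison or, where fewer than 4 passed, the 2 largest, the 3 highest and 3 lowest ranked, the 3 widest, and Acaca, Fasn, Scd1, Scd2, Srebf1, Srebf2, Insig1, Hmgcs1, Sqle and Cyp51. For Acaca they were given in scramble and CPT1a knockout only, with means for the other groups. Genes of the other lists were counted, and at most 3 past the threshold a comparison were named; in width, where 4 passed in CPT1a knockout and in KAT2a knockout, all 4 were named outside this rule, after their values were seen. Gene names without an entry in the RefSeq promoter table were Fdft1, Scd1, Scd2, Sqle, Fads1, Elovl3 and Fdps.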

Additional observations from a re-analysis of the deposited data

How the results depend on the processing

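The number of the 38 genes called in all 12 libraries was 33 with lists of equal length or with the summit required in the promoter window, and 34 in the other alternatives. For CPT1a knockout against scramble, 9 promoters changed rank by -log10 p and 2 by quantile-normalised fold enrichment, against 4, and 1 to 4 when a library was left out (1 without CPT1a knockout replicate 3, 2 without scramble replicate 1 or 3). For acetate against scramble, 8 changed by -log10 p and 1 with the GC trend removed, with normal scores or with quantile-normalised values, against 2, and 0 to 2 when a library was left out (0 without acetate replicate 1 or 2, 1 without acetate replicate 3 or scramble replicate 1). For KAT2a knockout against scramble, 5 changed by -log10 p and 1 with lists of equal length, against 0. Over all genes the ranking by -log10 p called 1704 higher and 1734 lower in CPT1a knockout, 1084 and 1243 in KAT2a knockout, and 1194 and 1356 with acetate against scramble. The main ranking called 514 and 565, 183 and 292, and 179 and 420. Quantile-normalised values called 147 and 139 in KAT2a knockout. With a library left out, 210 to 438 were higher and 271 to 461 lower in CPT1a knockout, 45 to 128 and 95 to 254 in KAT2a knockout, and 31 to 139 and 120 to 377 with acetate against scramble. For width with a library left out, 623 to 1071 genes were wider and 425 to 899 narrower in CPT1a knockout, 411 to 931 and 328 to 854 in KAT2a knockout (main counts 845 and 757), and 361 to 956 and 253 to 847 with acetate against scramble. By the widest peak, 490 were wider and 479 narrower with acetate against scramble, where the summed width called 808 and 743.

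For width in CPT1a knockout, 4 promoters were called with the GC trend removed and 2 by the widest peak, against 8, and 3 to 7 when a library was left out. In KAT2a knockout and with acetate against scramble, 1 was called with the GC trend removed, against 4 each, and 1 to 4 and 2 to 3 when a library was left out. The libraries whose absence moved these counts by over 1.5 times were CPT1a knockout replicates 1 and 2, KAT2a knockout replicates 1, 2 and 3, acetate replicates 1 and 2, and scramble replicates 2 and 3. The width difference of Mvd with acetate was -3.43 by the widest peak, with the opposite sign. The cause was not tested.

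Same-numbered libraries did not deviate together from their group means (correlation over 10777 ranks of -0.0439 to 0.0673), so the numbers were not taken to pair the samples. With the replicate block, 3 promoters changed rank in CPT1a knockout (Fads1 was lost, adjusted p = 0.0633), 0 in KAT2a knockout, 0 between acetate and CPT1a knockout and 2 with acetate against scramble, and 7, 4, 0 and 3 changed width rank. The branch difference stayed within 1 SD of its value in each alternative run, from -18.8 to -11.9 in CPT1a knockout, -14.0 to -9.45 with acetate, -14.0 to -5.07 in KAT2a knockout and -6.90 to 3.24 in scramble. These ranges come from processing choices on the same libraries and do not measure the spread between libraries, whose SD was 3.83 to 10.95. Differences smaller than these SDs cannot be seen with 3 libraries a group.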
